A study of Drosophila melanogaster with 28 samples.

Results

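The 39 genes described here encode proteins that release neurotransmitter or build the synapse, and they were followed by RNA sequencing in mutant and control embryos of Drosophila melanogaster. They were taken by gene name from a fixed list, with no measured value in the choice. All 39 were found among the 17558 genes of the count table made at 14-16 h after egg laying and among the 17753 genes of the table made at 16-18 h. By role the list holds 8 genes of the membrane fusion machinery, 5 synaptotagmins, 6 genes of the active zone and of vesicle priming, 3 other vesicle proteins, 7 genes of vesicle recycling, 4 genes for the making, loading and breakdown of transmitter, and 6 adhesion and scaffold genes.

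At a synapse, vesicles filled with transmitter dock at the active zone, are primed, and fuse with the membrane when calcium enters the nerve ending. Fusion is driven by SNARE proteins on the vesicle and on the membrane, a synaptotagmin senses calcium, and clathrin adaptors and dynamin then recover the vesicle membrane. Neurexin and the neuroligins join the sides of the synapse across the cleft. In the fly embryo many of these genes are active mainly in neurons, where synapses form in the last part of embryogenesis, and glutamate is the transmitter of the motor neurons.

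At 14-16 h the libraries were nej3 (4 libraries) and nejEP1179 (4), both mutant for nejire (nej), which encodes the histone acetyltransferase CBP/p300, and the stock w1118 (4) as control. At 16-18 h the labels name Dfd1 (2), a mutant of the Hox gene Deformed, ez731 (3), a mutant of the histone methyltransferase gene Enhancer of zeste, psce22 (2) and psch27 (3), both mutant for the Polycomb group gene Posterior sex combs, SppsG8810 (3), a mutant of the DNA-binding factor gene Spps, and w1118 (3). The mutants were kept over GFP-marked balancer chromosomes, and each mutant sample pooled 20 to 30 embryos picked by shape and by lack of GFP, so the mothers carried a functional copy of the gene. The w1118 stock carries a mutation in white, and the labels do not say that it shares its genetic background with the mutant stocks. The study describes the libraries of a genotype as biological replicates, and the labels do not say whether they came from separate egg collections. It reports equal amounts of males and females for its experiments other than those on ovaries. Whether this held for the picked nej mutants was not tested, so sex and genotype are not separated in the comparisons with w1118.

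Depth ranged between 13129082 and 21509453 counts in the 14-16 h libraries and between 17940038 and 22354257 counts in those of 16-18 h. Scaled to 1000000 counts in a library (CPM), nej was at 226 to 251 in nej3 and 358 to 533 in nejEP1179, against 232 to 257 in w1118, and Dfd was at 7.79 ± 1.84 CPM in Dfd1 and 18.7 ± 0.69 CPM in w1118 (SD, n = 2 and 3). At 16-18 h several labels are in conflict with other data. A result table was deposited for each mutant, and the mean counts in it show which columns it was made from. For 4 mutants these were columns of another label: psce22 replicates 1 and 2 with psch27 replicate 1 in the table for ez731, psch27 replicates 2 and 3 in that for psce22, SppsG8810 in that for psch27, and ez731 in that for SppsG8810. Psc was at 318 to 342 CPM in the libraries labelled SppsG8810, against 24.6 to 31.4 CPM in w1118. In those labelled psch27 it was at 121 and 128 CPM in replicates 2 and 3 but at 18.1 CPM in replicate 1, beside 19.4 and 21.9 CPM in those labelled psce22. E(z) was lowest, at 14.2 to 15.7 CPM, in those labelled psce22 and in psch27 replicate 1, against 23 to 25.7 CPM in w1118. These groups are therefore given as libraries labelled with a name, and no result is tied to the gene in that name. Over the 39 genes, psch27 replicate 1 lay nearer to the mean of the psce22-labelled libraries than to the mean of the other 2 psch27-labelled libraries for 22 of 37 genes tested (59.5%), against 78.3% of all 11366 genes tested.

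The genes stnA and stnB, which encode the stoned proteins of vesicle recycling, had a count of 0 in all 28 libraries. In the annotation they have the same span (X, 22980722 to 23004648, minus strand, dm6) and share 100% of their exon bases, because both proteins are read from the same transcript. How reads that lie in 2 genes were counted is not given in the sources used here, so the 0 sets no limit on this transcript. The other 37 genes passed the filter on low counts at both ages and were tested.

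In w1118 the 37 genes were expressed over a wide range. Per kilobase of exon, alphaSnap (the adaptor that brings NSF to SNARE complexes), nSyb (the vesicle SNARE) and Rop (the Munc18 partner of syntaxin) had the highest levels at 16-18 h, at 108, 88.8 and 84.2 CPM per kb, against 78.5, 60.7 and 52.9 CPM per kb at 14-16 h. The lowest levels were those of Rph (rabphilin, a Rab3 effector), at 4.06 and 2.06 CPM per kb at 16-18 h and 14-16 h, and Sytalpha, at 4.84 and 1.7 CPM per kb. The 3 libraries at 16-18 h lay above all 4 libraries at 14-16 h for 21 of the 37 genes (56.8%) and below them for 7 (18.9%), against 37.2% and 41.9% of the 10134 genes tested in both tables. The median ratio of the later to the earlier age was 1.17 over the 37 genes and 0.959 over all genes. The ages were counted in separate tables with different releases of the annotation and were not tested against each other, so age and table cannot be told apart.

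Within a role class the genes differed widely between the ages. Gad1, which makes GABA, was at 226, 206 and 204 CPM at 16-18 h, against 57.5, 53.3, 50.5 and 48.2 CPM at 14-16 h, a ratio of 4.05. Nlg4 was 2.92 times and Nlg3 2.1 times as high at the later age, while Nlg1 had a ratio of 0.987 with overlapping libraries. Among the synaptotagmins the ratio was 2.85 for Sytalpha, 2.64 for Sytbeta, 1.28 for Syt7, 1.18 for Syt1 and 1.08 for Syt4. The 2 NSF ATPase genes, which take SNARE complexes apart after fusion, stood on opposite sides: comt was at 80.2 ± 4.59 CPM at 16-18 h and 39.1 ± 2.17 CPM at 14-16 h, and Nsf2 at 63.7 ± 2.68 CPM at 16-18 h and 93.9 ± 4.06 CPM at 14-16 h (SD, n = 3 and 4). As these are close paralogs, reads that fit both genes could have been counted for either. Liprin-alpha, AP-2alpha, lap, unc-13, Syx1A and Dap160 were the other 6 genes with all 3 later libraries below the earlier ones, with ratios of 0.766 to 0.956.

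**Figure D1:**
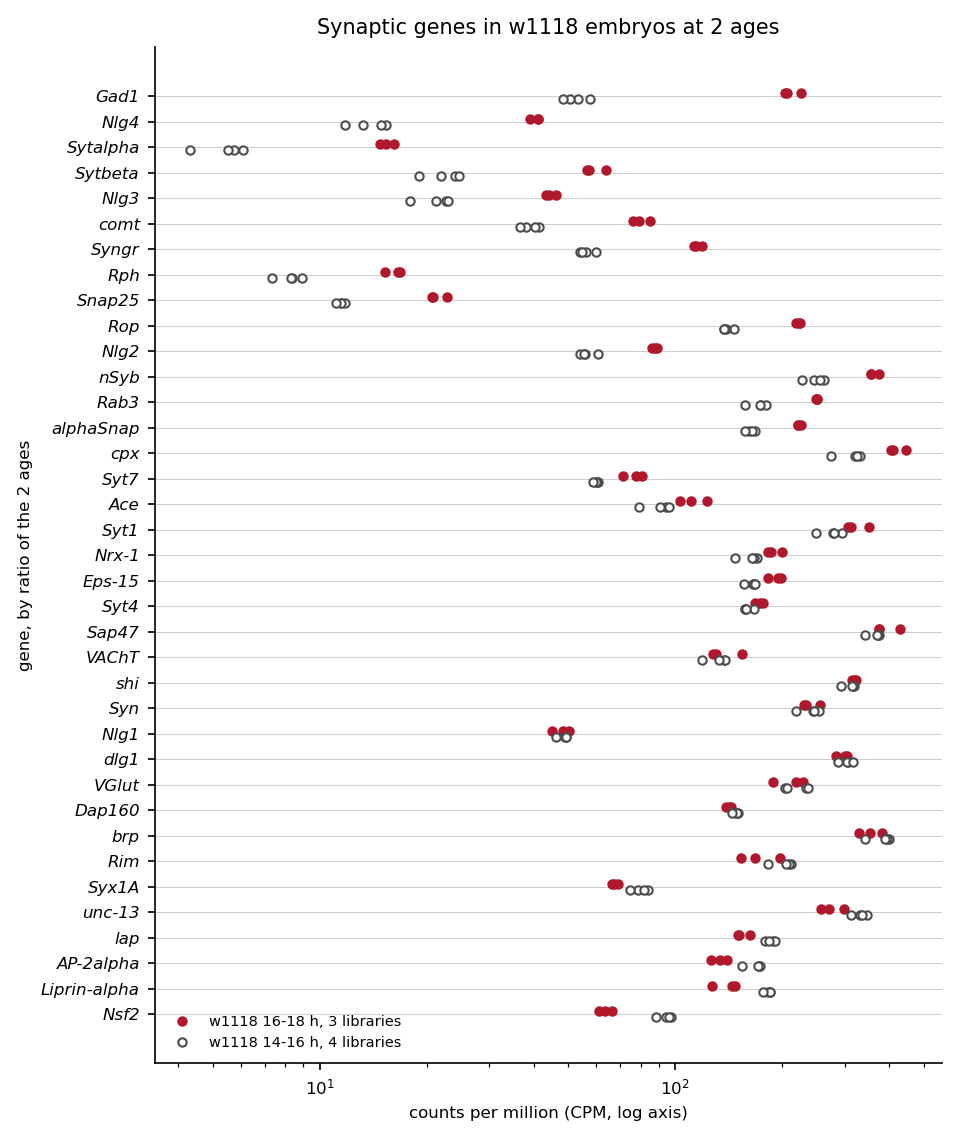
CPM (log axis) of the 37 tested synaptic genes in each w1118 library, ordered by the ratio of 16-18 h (filled points, 3 libraries) to 14-16 h (open points, 4 libraries). Gad1 (ratio 4.05) is at the top and Nsf2 (0.678) at the bottom, and the points of 9 genes overlap between ages.

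In the nej mutants, the comparison asks whether transcript levels of these genes differ in embryos mutant for CBP. RNA of nej itself was not called in nej3 (log2 change -0.04, adjusted p = 0.84) and was higher in nejEP1179 (0.73, adjusted p = 2.1e-04), so it shows no loss of the target RNA in either allele. Whether an allele alters the protein was not measured. VGlut, the vesicular glutamate transporter, was lower in both alleles. In the main edgeR fit it was the only gene of the list called in the same direction in both. Otherwise nej3 had few changes, while nejEP1179 had 8 genes that were modestly higher, of which 2 each belong to the fusion machinery, the active zone and the adhesion class. Of 37 genes tested, 1 was higher (2.7%) and 3 lower (8.11%) in nej3, where 12.3% of all 10397 genes were higher and 11.7% lower. In nejEP1179, 8 were higher (21.6%) and 1 lower (2.7%), where 12.6% of all genes were higher and 12.3% lower. The median log2 change over the 37 genes was 0.01 in nej3 and 0.11 in nejEP1179, with medians of -0.01 and -0.00 over all genes. Both comparisons share the 4 w1118 libraries.

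VGlut (2L, 2400295 to 2410662, plus strand, dm6) was at 119, 133, 105 and 122 CPM in nej3 and at 122, 129, 136 and 145 CPM in nejEP1179, against 233, 236, 204 and 206 CPM in w1118. Every mutant library was below every control library. The log2 change was -0.88 ± 0.07 in nej3 (SE, adjusted p = 4.7e-07) and -0.73 ± 0.07 in nejEP1179 (adjusted p = 3.7e-06). The call held under each of the 13 alternatives of each comparison, with adjusted p of at most 8.5e-06 in nej3 and 4.4e-05 in nejEP1179. The other transmitter genes of the list did not follow it: VAChT, which loads acetylcholine, was higher in nejEP1179 (log2 change 0.34 ± 0.09, adjusted p = 0.019, and 0.055 without w1118 replicate 4), and Gad1 and Ace, which breaks down acetylcholine, were called in neither allele. Outside the list, ChAT, which makes acetylcholine, was lower in nej3, at 15.8 CPM against 18.4 CPM in w1118 (log2 change -0.22, adjusted p = 0.029). It was not called in nejEP1179 (log2 change 0.05), and VGAT, also outside the list, was called in neither allele. In a whole embryo, fewer cells of a type and less RNA in each of those cells cannot be told apart.

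The summed RNA of neuronal markers overlapped between mutants and controls, while single markers moved both ways in nej3. The sum of 10 neuronal genes, none of them at 0, was 2798 to 3196 CPM in nej3 and 3107 to 3793 CPM in nejEP1179, against 2931 to 3209 CPM in w1118. Of the 10 genes, 1 was higher and 2 lower in nej3 (30% called, with 24% of all genes), at log2 changes of -0.42 to 0.40. In nejEP1179, 2 were higher and 0 lower (20% called, with 24.9% of all genes), at log2 changes of -0.15 to 0.48. The sum of 12 muscle genes was 35994 to 42185 CPM in nej3 and 34289 to 41324 CPM in nejEP1179, against 31525 to 34208 CPM in w1118, so all mutant libraries were above the controls. The sum of 12 heat shock genes was 1844 to 3067 CPM in nej3 and 646 to 1263 CPM in nejEP1179, against 579 to 603 CPM in w1118. Of 11 tested, 10 were higher in nej3 (90.9%, with 12.3% of all genes). The part of neuronal, muscle and heat shock RNA in the results on synaptic genes was not tested.

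Snap25, a SNARE of the nerve terminal membrane, was at 7.41, 9.9, 6.2 and 7.01 CPM in nej3 and at 8.61, 12.1, 11.3 and 12.1 CPM in nejEP1179, against 11.5, 11.8, 11.5 and 11.1 CPM in w1118. All 4 nej3 libraries were below the controls, while the nejEP1179 libraries overlapped them. It fell in nej3 by 0.59 ± 0.13 on the log2 scale (SE, adjusted p = 0.0044). Syt7, a calcium-binding synaptotagmin, was at 46.1, 53.7, 36.4 and 51.1 CPM in nej3 and at 50.3, 53.1, 54.4 and 51.7 CPM in nejEP1179, against 60.5, 60.2, 59.9 and 58.6 CPM in w1118. All mutant libraries were below all controls, and the change passed the test in nej3 only (log2 change -0.35 ± 0.09, adjusted p = 0.0093). The calls for Snap25 and Syt7 in nej3 held under each alternative, with adjusted p of at most 0.015 and 0.036. Nlg3, a neuroligin, was at 25.5, 32.6, 24.2 and 25 CPM in nej3 and at 22.7, 22.9, 21.3 and 18 CPM in w1118 (a log2 change of 0.34 ± 0.11, adjusted p = 0.038). That call was lost without nej3 replicate 2 or w1118 replicates 1, 3 or 4, at adjusted p of 0.089, 0.051, 0.08 and 0.085.

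**Figure D2:**
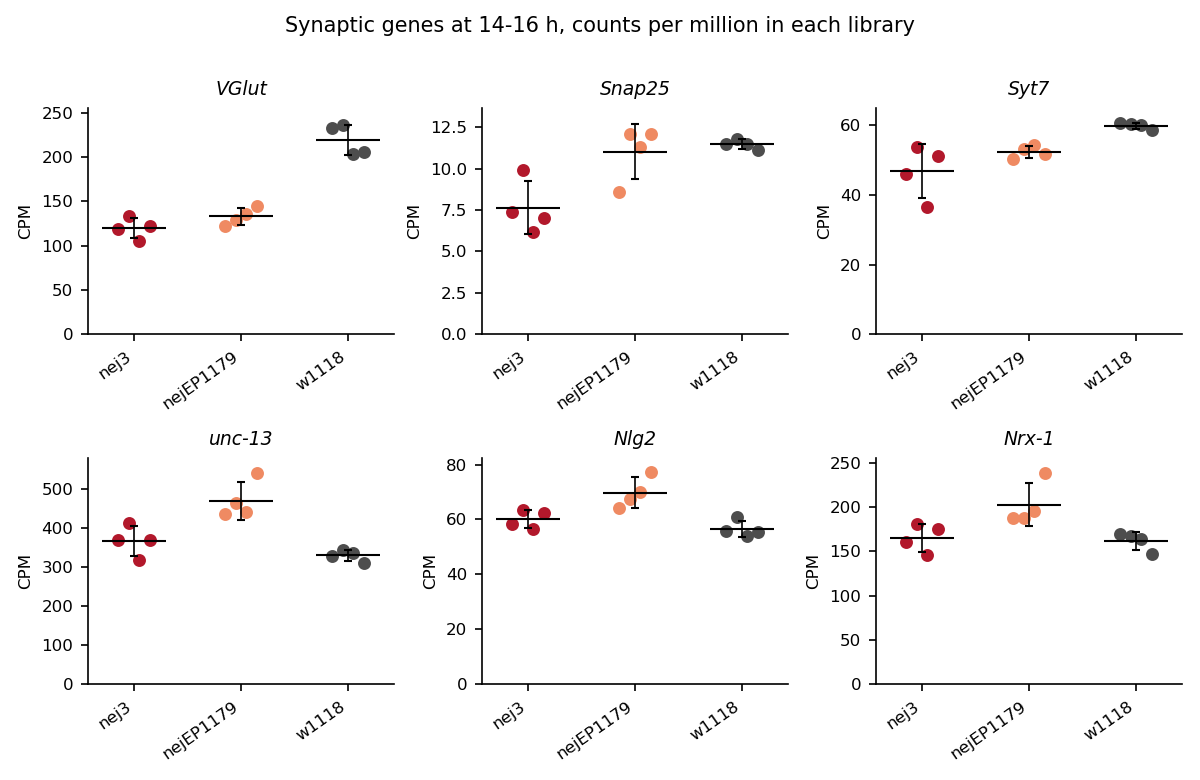
CPM of 6 synaptic genes in each library of nej3, nejEP1179 and w1118 at 14-16 h (points), with the mean and SD (bars, n = 4 each). VGlut was at 105 to 145 CPM in the mutants and 204 to 236 CPM in w1118, and unc-13 was at 436 to 542 CPM in nejEP1179 and 311 to 345 CPM in w1118.

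The 8 genes that were higher in nejEP1179 were unc-13, brp, Syx1A, Rop, Nlg2, Nrx-1, Syngr and VAChT. unc-13, the priming factor, was at 436, 464, 441 and 542 CPM in nejEP1179 and at 371, 413, 318 and 370 CPM in nej3, against 330, 345, 336 and 311 CPM in w1118. The nejEP1179 libraries were above all others, and the change over w1118 was 0.51 ± 0.08 on the log2 scale (SE, adjusted p = 2.2e-04). In the annotation 25.6% of the exon bases of unc-13 overlap genes on the opposite strand, whose reads cannot be told apart where strand was not used in counting. brp, the scaffold of the active zone, was at 431, 442, 461 and 576 CPM in nejEP1179, against 398, 394, 390 and 341 CPM in w1118 (a log2 change of 0.33 ± 0.10, adjusted p = 0.025).

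Among the adhesion genes, Nlg2 was at 64.1, 67.5, 69.9 and 77.4 CPM in nejEP1179, against 55.9, 60.8, 54 and 55.5 CPM in w1118 (a log2 change of 0.30 ± 0.06, adjusted p = 0.0021). Its presynaptic partner neurexin, Nrx-1, was at 188, 188, 196 and 239 CPM, against 170, 167, 164 and 147 CPM (log2 change 0.32 ± 0.08, adjusted p = 0.012). The libraries of both genes did not overlap. The smallest calls were Syx1A (syntaxin, log2 change 0.27, adjusted p = 0.041), Syngr (synaptogyrin of the vesicle membrane, 0.23, adjusted p = 0.021) and Rop (0.16, adjusted p = 0.016). For Syx1A the groups overlapped, as nejEP1179 replicate 1 was at 83.6 CPM and w1118 replicate 2 at 83.8 CPM, and 10.7% of its exon bases are shared with eIF4EHP on the same strand.

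These rises rested in part on 1 control library. w1118 replicate 4 was the lowest of the 4 controls for 31 of the 37 genes, and its neuronal sum of 2931 CPM was also the lowest. Its sums of muscle (31525 CPM), glial (1049 CPM) and cuticle and tracheal genes (3944 CPM) were the lowest too, so this was not particular to synaptic or neuronal genes. For this and the other counts of genes lowest or highest in 1 library, the share of all genes is not given here. Without w1118 replicate 4, the count of genes higher in nejEP1179 was 4 in place of 8. VAChT, brp, Syngr and Syx1A lost their calls there, at adjusted p of 0.055, 0.069, 0.056 and 0.11. Without w1118 replicate 3, Rop was at an adjusted p of 0.051 and Syx1A at 0.071, and without w1118 replicate 1, Syngr was at 0.061 and Syx1A at 0.086. Syx1A was also lost without nejEP1179 replicate 3 (0.076), nejEP1179 replicate 4 (0.078) or w1118 replicate 2 (0.056). With all libraries kept, Syx1A was lost when only the groups compared were fitted (0.062) and with a replicate block (0.076), and brp with a replicate block (0.051). The calls for unc-13, Nlg2 and Nrx-1 held under all 13 alternatives. On the side of the mutant, nejEP1179 replicate 4 was the highest of its group for 29 of the 37 genes.

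Set against each other, the alleles differed for 7 genes, all of them lower in nej3 than in nejEP1179 (18.9% of 37, where 4.3% of all genes were lower). The count of genes that were higher in nej3 was 0 with edgeR, 0 at an unadjusted p under 0.05 and 0 with DESeq2, where 5% of all genes were higher. The genes were Snap25 (log2 difference -0.53, adjusted p = 0.022), unc-13 (-0.35, adjusted p = 0.01), cpx (-0.33, adjusted p = 0.041), Nrx-1 (-0.29, adjusted p = 0.044), Nlg2 (-0.21, adjusted p = 0.043), Dap160 (-0.17, adjusted p = 0.025) and Rop (-0.16, adjusted p = 0.028). cpx encodes complexin, which clamps the SNARE complex before fusion, and Dap160 is the intersectin of vesicle recycling. cpx was at 277, 325, 233 and 294 CPM in nej3, against 330, 335, 368 and 384 CPM in nejEP1179, and w1118 with 274 to 331 CPM spanned most of the gap between them. The difference for unc-13 held under each alternative, with adjusted p of at most 0.039. The others were lost in 6 to 9 of the 13 alternatives: the count was 1 without nej3 replicate 3, nejEP1179 replicate 3 or nejEP1179 replicate 4, 2 without nej3 replicate 1 or nej3 replicate 4, and 4 without nejEP1179 replicate 2. It was also 1 when only these 2 groups were fitted. nej3 replicate 3 was the lowest of its group for 31 of the 37 genes and had the lowest neuronal sum of all 12 libraries, at 2798 CPM.

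Of the 5 tested genes of vesicle recycling, shi (dynamin), lap (the AP180 clathrin assembly protein), Eps-15, AP-2alpha and Dap160, none was called against w1118 in either allele. The vesicle proteins Sap47 and Syn were called in neither, and Rim, Rab3, Rph and Liprin-alpha of the active zone were not either. Of 40 further synapse genes that are not on the list of 39, 4 were higher and 8 lower in nej3, and 7 were higher and 3 lower in nejEP1179. These are 10% and 20% of the 40 in nej3, where 12.3% and 11.7% of all genes were called, and 17.5% and 7.5% in nejEP1179, where 12.6% and 12.3% were. Syt14, a synaptotagmin, was at 9.55 CPM in nej3 and 12 CPM in nejEP1179 on average, and w1118 was at 14.4 CPM. Its log2 change was -0.60 in nej3 (adjusted p = 1.2e-04) and -0.28 in nejEP1179 (adjusted p = 0.029). Rab3-GEF, the exchange factor of Rab3, was at 59.1 and 65.5 CPM in nej3 and nejEP1179, against 48.1 CPM in w1118, with a log2 change of 0.30 (adjusted p = 0.035) and 0.44 (adjusted p = 0.0041).

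At 16-18 h, the comparisons ask how these genes stood in mutants of chromatin and transcription regulators. The 5 label groups share the same 3 w1118 libraries. Syn, which encodes synapsin, was higher in all 5, and no other gene was called in the same direction in more than 3. VGlut, Nlg1 and Sytbeta were lower in 3 groups each. The groups otherwise differed: lower levels prevailed in Dfd1 and higher levels in the libraries labelled ez731, while those labelled psce22 had about as many in each direction. Those labelled psch27 had 6 calls and those labelled SppsG8810 had 2, counts that moved to 0 and to 13 when only the groups compared were fitted. The shares of all genes called under that fit are not given here, so a shift over all genes is not separated from one in this list.

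Synapsin binds vesicles and holds them in the reserve pool. Syn (3R, 10190689 to 10222442, plus strand, dm6) was at 271 and 322 CPM in Dfd1 and at 314, 373 and 351 CPM in libraries labelled ez731. It was at 294 and 295 CPM in libraries labelled psce22, at 309, 333 and 349 CPM in those labelled psch27, and at 311, 323 and 320 CPM in those labelled SppsG8810, against 233, 230 and 256 CPM in w1118. No mutant library overlapped the controls. The log2 changes were 0.31 in Dfd1 (adjusted p = 0.011), 0.53 in ez731-labelled (5.2e-04), 0.30 in psce22-labelled (0.021), 0.46 in psch27-labelled (0.0044) and 0.41 in SppsG8810-labelled libraries (0.0076), with SE of 0.08 to 0.09. The call held under all 11 alternatives in the ez731-labelled and SppsG8810-labelled groups. It was lost in psch27-labelled libraries when only the groups compared were fitted (adjusted p = 0.074), in Dfd1 without Dfd1 replicate 2 (0.11), and in psce22-labelled libraries without psce22 replicate 1 (0.061), psce22 replicate 2 (0.088), w1118 replicate 1 (0.063) or w1118 replicate 2 (0.065). In both nej alleles at 14-16 h Syn was not called, at a log2 change of -0.03 in nej3 (adjusted p = 0.79) and 0.21 in nejEP1179 (adjusted p = 0.053). In nejEP1179 it was called higher under 5 of the 13 alternatives.

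Neuronal marker RNA was also higher in some of these groups. The sum of the 10 neuronal genes was 2005 and 2322 CPM in Dfd1, 2220 to 2519 CPM in ez731-labelled, 2346 and 2423 CPM in psce22-labelled, 2089 to 2574 CPM in psch27-labelled and 1978 to 2123 CPM in SppsG8810-labelled libraries, against 1749 to 2039 CPM in w1118, so SppsG8810 replicate 1 and Dfd1 replicate 1 were within the range of the controls. Of the 10 genes, 9 were higher in ez731-labelled libraries (90%, with 13.2% of all genes), 7 in psce22-labelled (70%, with 17.7%) and 5 in Dfd1 (50%, with 25.5%). In psch27-labelled libraries 4 were higher (40%, with 3.48%), in SppsG8810-labelled libraries 0 (with 3.43%), and none was lower in any group. The part of neuronal RNA in the results on Syn and the other genes was not tested.

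VGlut was at 134 and 150 CPM in Dfd1 and at 120, 127 and 127 CPM in libraries labelled SppsG8810. It was at 179 and 167 CPM in libraries labelled psce22, at 184, 176 and 183 CPM in those labelled psch27, and at 185, 217 and 203 CPM in those labelled ez731, against 219, 188 and 228 CPM in w1118. Only the ez731-labelled libraries overlapped the controls. The log2 change was -0.77 ± 0.08 in SppsG8810-labelled libraries (SE, adjusted p = 1.0e-04), -0.57 ± 0.09 in Dfd1 (adjusted p = 2.3e-04), and -0.29 ± 0.09 in psce22-labelled libraries (adjusted p = 0.022). The first 2 calls held under every alternative, with adjusted p of at most 0.0012 and 0.006. The psce22-labelled call was lost without psce22 replicate 1 (0.068), psce22 replicate 2 (0.22), w1118 replicate 1 (0.066) or w1118 replicate 3 (0.072). The psce22-labelled call of VGlut was also lost with a replicate block (adjusted p = 0.051). In libraries labelled SppsG8810, VGlut and Syn were the only genes called, 1 lower and 1 higher of 37 (2.7% each), where 5.43% of all 11366 genes were lower and 3.43% higher. The 3 libraries lay above every control for 13 of the 37 genes (35.1%), where 19.1% of all genes did, and without SppsG8810 replicate 1, 2 genes were higher. The count rested on the fit: 5 genes were higher with DESeq2, and 10 were higher and 3 lower when only these libraries and w1118 were fitted. The shares of all genes under these fits are not given here.

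Nlg1, a neuroligin, was at 24.3 and 27.5 CPM in Dfd1 and at 35.2 to 42.1 CPM in libraries labelled psce22 and psch27, against 44.9, 50.1 and 48.4 CPM in w1118. The mutant and control libraries did not overlap in these 3 groups. Its log2 change was -0.88 ± 0.10 in Dfd1 (SE, adjusted p = 2.2e-05), -0.30 in psce22-labelled libraries (adjusted p = 0.029) and -0.38 in psch27-labelled libraries (adjusted p = 0.02). Sytbeta was at 37.8 and 40.7 CPM in Dfd1, at 48.3 and 42.1 CPM in libraries labelled psce22 and at 49.6, 43.2 and 43.9 CPM in those labelled psch27, against 63.9, 56.4 and 57.1 CPM in w1118. Its log2 change was -0.59 in Dfd1 (adjusted p = 3.1e-04), -0.39 in psce22-labelled libraries (adjusted p = 0.0095) and -0.38 in psch27-labelled libraries (adjusted p = 0.02). The calls for Nlg1 and Sytbeta held under every alternative in Dfd1. In psce22-labelled libraries, Nlg1 lost its call without psce22 replicate 1 (0.34), psce22 replicate 2 (0.061), w1118 replicate 2 (0.084) or w1118 replicate 3 (0.063), and Sytbeta without psce22 replicate 2 (0.15). The psce22-labelled call of Nlg1 was also lost with no filter on low counts (0.06). In psch27-labelled libraries, Nlg1 and Sytbeta both lost their calls without psch27 replicate 2 (0.056 for Nlg1 and 0.055 for Sytbeta) or psch27 replicate 3 (0.065 and 0.064), Nlg1 also without w1118 replicate 2 (0.086) or w1118 replicate 3 (0.065), and Sytbeta without w1118 replicate 1 (0.094). Both were also lost there when only the groups compared were fitted (0.12 for Nlg1 and 0.15 for Sytbeta).

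**Figure D3:**
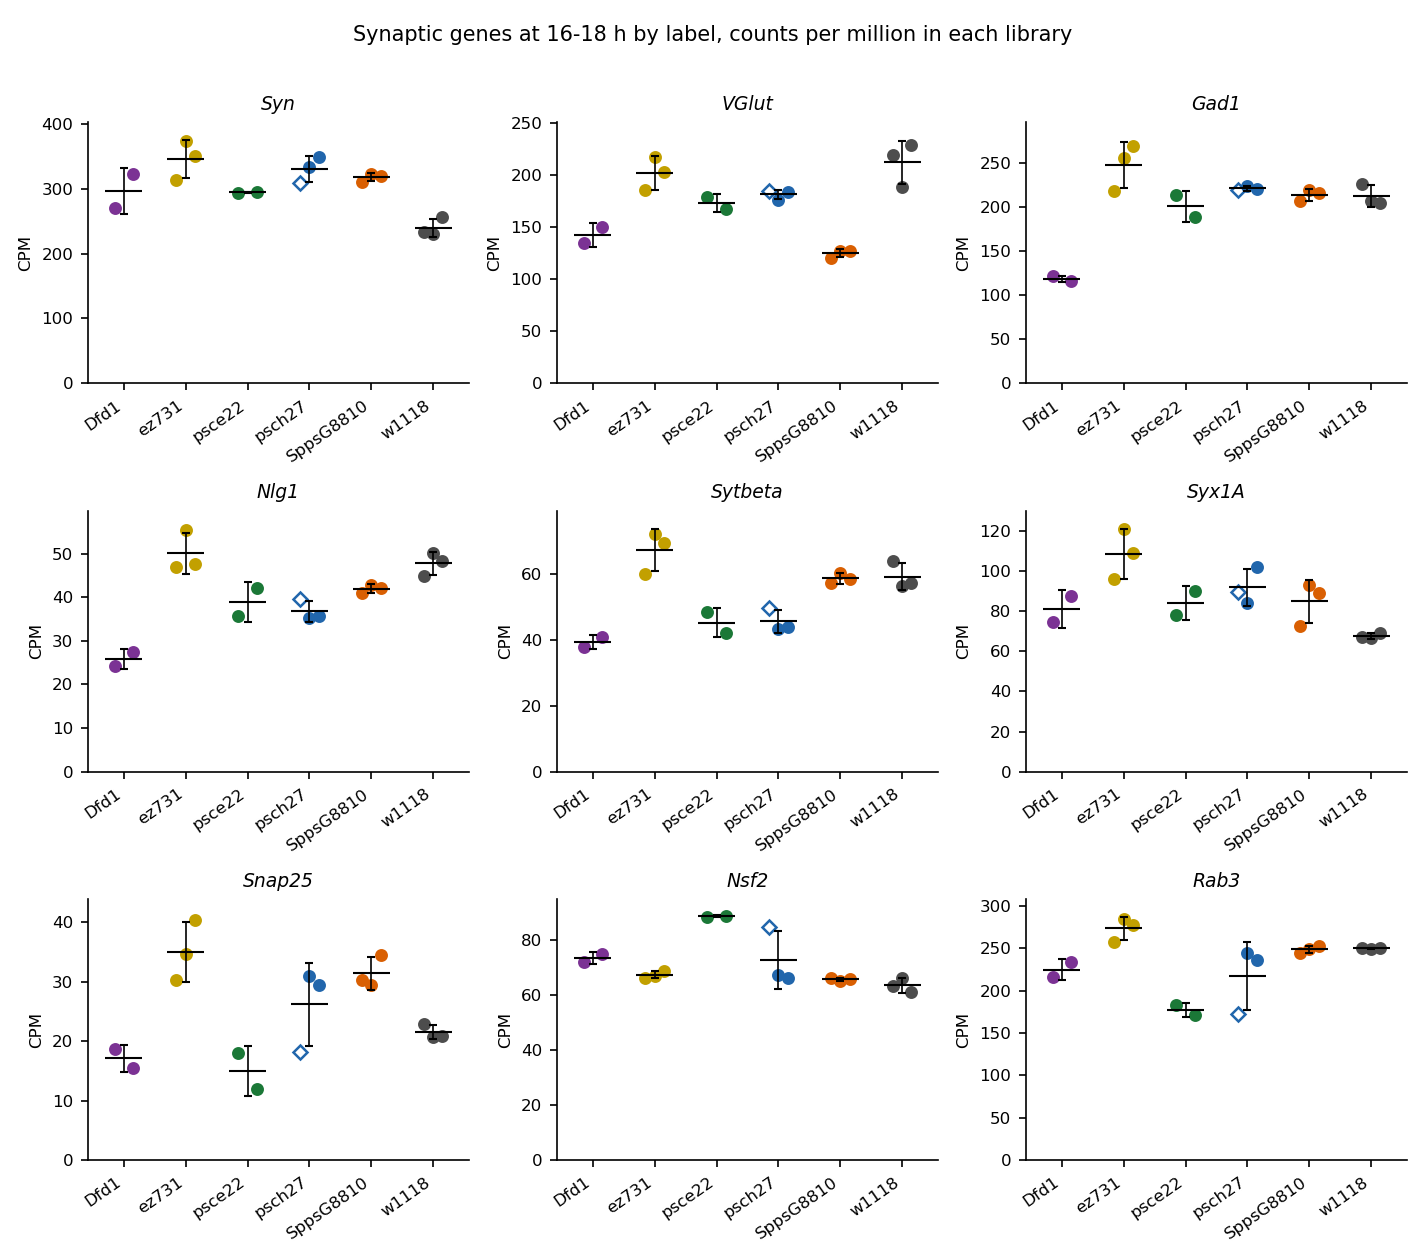
CPM of 9 synaptic genes in each library at 16-18 h by label, with the mean and SD (bars, n = 2 or 3). The open diamond is psch27 replicate 1. Syn was at 271 CPM or more in every mutant library and at 256 CPM or less in w1118, and for Snap25, Nsf2 and Rab3 the diamond lies with the psce22-labelled libraries.

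In Dfd1, 12 of 37 genes were lower (32.4%) and 2 higher (5.41%), where 27% of all 11366 genes were lower and 25.5% higher. The median log2 change of the 37 genes was -0.15, against 0.01 over all genes. Both libraries lay below every control for 20 of the 37 genes (54.1%), where 36.6% of all genes did. The largest falls after Nlg1 were those of Gad1 and Sytalpha. Gad1 was at 121 and 116 CPM in Dfd1, against 226, 206 and 204 CPM in w1118 (a log2 change of -0.84 ± 0.09, adjusted p = 1.4e-05). Sytalpha was at 9.96 and 8.79 CPM, against 16.2, 15.4 and 14.8 CPM (log2 change -0.72 ± 0.12, adjusted p = 3.5e-04). Rph was at 10.3 and 10.9 CPM, against 16.8, 15.3 and 16.6 CPM (log2 change -0.62 ± 0.12, adjusted p = 0.0011). None of these libraries overlapped the controls.

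The other falls in Dfd1 were Nlg4 (log2 change -0.59, adjusted p = 2.5e-04), cpx (-0.55, adjusted p = 6.2e-04), comt (-0.36, adjusted p = 4.1e-04), Syngr (-0.35, adjusted p = 0.0019), Nlg3 (-0.33, adjusted p = 0.0043) and Eps-15 (-0.17, adjusted p = 0.015). Of the neuroligins, Nlg2 was not called (69.1 and 84.8 CPM in Dfd1, against 88.6, 87.6 and 85.9 CPM in w1118). unc-13 was higher, at 335 and 395 CPM in Dfd1, against 257, 270 and 299 CPM in w1118 (a log2 change of 0.40, adjusted p = 0.013). Of the 14 calls, 10 held under all 10 alternatives. Eps-15 was lost with no filter on low counts (adjusted p = 0.067) and when only the groups compared were fitted (0.11). unc-13 was lost without Dfd1 replicate 2 (0.12), so that 0 genes were higher without that library. Nlg3 was lost without Dfd1 replicate 1 (0.053), and Eps-15 without Dfd1 replicate 1 (0.11), Dfd1 replicate 2 (0.066) or w1118 replicate 2 (0.058).

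Side by side with the ages in w1118, Gad1, Nlg4, Sytalpha and Sytbeta had ratios of 16-18 h to 14-16 h of 4.05, 2.92, 2.85 and 2.64 and log2 changes in Dfd1 of -0.84, -0.59, -0.72 and -0.59. VGlut and Nlg1 had ratios of 0.962 and 0.987 and log2 changes in Dfd1 of -0.57 and -0.88. The age ratio and the Dfd1 change use the same 16-18 h w1118 libraries, so these are descriptions only. Other RNA also moved in Dfd1: the sum of 9 eggshell genes was 2448 and 714 CPM, against 1.5 to 15.2 CPM in w1118, that of 10 cuticle and tracheal genes 5939 and 6147 CPM, against 15282 to 16307 CPM, and that of 12 muscle genes 37005 and 40671 CPM, against 50650 to 53332 CPM. The sum of 9 glial genes was 1024 and 1129 CPM, against 1315 to 1442 CPM in w1118, with 6 of 9 lower and 1 higher. That of 12 heat shock genes was 826 and 509 CPM, against 207 to 361 CPM, with 4 of 9 tested higher. Of all genes, 27% were lower and 25.5% higher in Dfd1. The part of these in the results was not tested. Dfd1 replicate 1, which had more eggshell RNA, was the lower of the pair for 33 of the 37 genes.

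In libraries labelled ez731, 14 of 37 genes were higher (37.8%), where 13.2% of all 11366 genes were higher. The count of genes that were lower was 0 with edgeR, 0 at an unadjusted p under 0.05 and 0 with DESeq2, where 15.8% of all genes were lower. The median log2 change of the 37 genes was 0.18, against -0.01 over all genes. The calls covered every role class. Snap25 was at 30.2, 34.6 and 40.3 CPM, against 22.8, 20.7 and 20.9 CPM in w1118 (a log2 change of 0.71 ± 0.19, SE, adjusted p = 0.016). unc-13 was at 421, 496 and 413 CPM, against 257, 270 and 299 CPM (log2 change 0.69 ± 0.11, adjusted p = 7.4e-04). Syx1A was at 96, 121 and 109 CPM, against 67.3, 66.4 and 69.1 CPM (log2 change 0.68 ± 0.11, adjusted p = 9.0e-04). For these 3 genes no library overlapped the controls.

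The active zone scaffolds brp (log2 change 0.48, adjusted p = 0.0044) and Rim (0.36, adjusted p = 0.015) were also higher in ez731-labelled libraries, as were Ace (0.37, adjusted p = 0.01), Syt1, the calcium sensor of fast release (0.32, adjusted p = 0.0099), and dlg1, the postsynaptic scaffold (0.32, adjusted p = 0.0058). The remaining calls were Sap47 (0.32), cpx (0.31), lap (0.23), Gad1 (0.22) and Dap160 (0.21), with adjusted p of 0.013 to 0.046. In 20 of the 37 genes (54.1%) all 3 libraries lay above all controls, where 23.9% of all genes did. ez731 replicate 1 was the lowest of its group for 34 of the 37 genes and had an eggshell sum of 250 CPM, against 18.2 and 14.2 CPM in the other 2. Of the 14 calls, 7 held under all 11 alternatives: Syx1A, Syt1, brp, unc-13, Syn, Ace and dlg1. The count was 8 without ez731 replicate 2, 9 without ez731 replicate 3 and 8 without w1118 replicate 2, and Snap25, Rim, Sap47, cpx, lap, Gad1 and Dap160 lost their calls in at least 1 of the fits that left out a library, at adjusted p of 0.052 to 0.19.

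Both cpx and Gad1 were called in opposite directions in 2 groups, lower in Dfd1 and higher in ez731-labelled libraries. cpx was at 266 and 307 CPM in Dfd1 and at 449, 561 and 549 CPM in libraries labelled ez731, against 410, 403 and 446 CPM in w1118. Gad1 in ez731-labelled libraries was at 218, 255 and 269 CPM and overlapped the w1118 range of 204 to 226 CPM. Without ez731 replicate 3 its adjusted p was 0.19, without ez731 replicate 2 it was 0.13, and without w1118 replicate 2 or 3 it was 0.14. With no filter on low counts, or with only the groups compared, the adjusted p of Gad1 was 0.053, and with a replicate block it was 0.072. For cpx it was 0.085 without ez731 replicate 2, 0.074 without ez731 replicate 3, 0.062 without w1118 replicate 1 and 0.074 without w1118 replicate 2.

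In libraries labelled psce22, 6 of 37 genes were higher (16.2%) and 7 lower (18.9%), where 17.7% of all 11366 genes were higher and 21.9% lower. Within the fusion machinery the NSF paralogs moved apart: Nsf2 was at 88.5 and 89 CPM, against 63.5, 66.4 and 61.1 CPM in w1118 (a log2 change of 0.48 ± 0.09, SE, adjusted p = 0.0029), and comt was at 70.7 and 64.9 CPM, against 85.1, 76.1 and 79.3 CPM (log2 change -0.24 ± 0.06, adjusted p = 0.01). Rab3, the GTPase that brings vesicles to the active zone, was at 183 and 171 CPM, against 250, 249 and 251 CPM (log2 change -0.50 ± 0.12, adjusted p = 0.0072). Among the active zone scaffolds, Liprin-alpha (log2 change 0.35, adjusted p = 0.037) and brp (0.34, adjusted p = 0.032) were higher. Syt4 (0.27, adjusted p = 0.009) and AP-2alpha (0.19, adjusted p = 0.043) were also higher, while Syt7 (-0.31, adjusted p = 0.025) and Rop (-0.28, adjusted p = 0.028) were lower.

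With 2 libraries these calls were the least stable. Of 13, only Nsf2 held under all 10 alternatives. Without psce22 replicate 2, 1 gene was higher and 0 were lower, and without psce22 replicate 1, 2 were higher and 4 lower. Without w1118 replicate 1, 2 were higher and 4 lower, 3 were higher without w1118 replicate 2, and 4 were lower without w1118 replicate 3. Rab3, comt and Syt4 lost their calls only without psce22 replicate 2 (adjusted p = 0.083, 0.18 and 0.055). When only the groups compared were fitted, 11 genes were higher. The sum of muscle genes was 45752 and 43588 CPM in these libraries, against 50650 to 53332 CPM in w1118. That of cuticle and tracheal genes was 11518 and 9402 CPM, against 15282 to 16307 CPM. That of 8 neuroblast genes was 267 and 276 CPM, against 211 to 233 CPM, with 5 of the 8 higher (62.5%, with 17.7% of all genes). The part of these in the result was not tested.

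In libraries labelled psch27, 4 of 37 genes were higher (10.8%) and 2 lower (5.41%), where 3.48% of all 11366 genes were higher and 4% lower. After Syn, the genes that were higher were Syx1A, at 89.7, 84.1 and 102 CPM, against 67.3, 66.4 and 69.1 CPM in w1118 (a log2 change of 0.44 ± 0.11, SE, adjusted p = 0.033), Syt4 (0.28, adjusted p = 0.014) and dlg1 (0.28, adjusted p = 0.032). None of the 6 calls held under every alternative. A fit of these libraries and w1118 alone gave 0 calls in each direction, and the adjusted p of Syn was then 0.074. The count of higher genes was 2 without psch27 replicate 3 or w1118 replicate 3 and 1 without w1118 replicate 1 or w1118 replicate 2. The count of lower genes was 0 without psch27 replicate 2 or psch27 replicate 3 and 1 without w1118 replicate 1, 2 or 3. Without psch27 replicate 1 all 6 calls held, and Snap25 was also called higher (adjusted p = 0.048, and 0.42 with all libraries).

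The 3 libraries labelled psch27 did not behave as 1 group. Nsf2 was at 85 CPM in replicate 1 and at 67.4 and 66.4 CPM in replicates 2 and 3, beside 88.5 and 89 CPM in libraries labelled psce22. Rab3 was at 172 CPM in replicate 1 and at 245 and 236 CPM in replicates 2 and 3, beside 183 and 171 CPM in those labelled psce22. Snap25 was at 18.2 CPM in replicate 1 and at 31 and 29.4 CPM in the others, beside 18 and 12 CPM, and Rop at 192 CPM and at 246 and 237 CPM, beside 188 and 178 CPM. For all 4 genes replicate 1 lay with the psce22-labelled libraries, with which it was also averaged in the deposited table for ez731, and replicates 2 and 3 did not. These genes were chosen for this description after their values were seen, and the calls of the psch27-labelled group are means over unlike libraries.

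**Figure D4:**
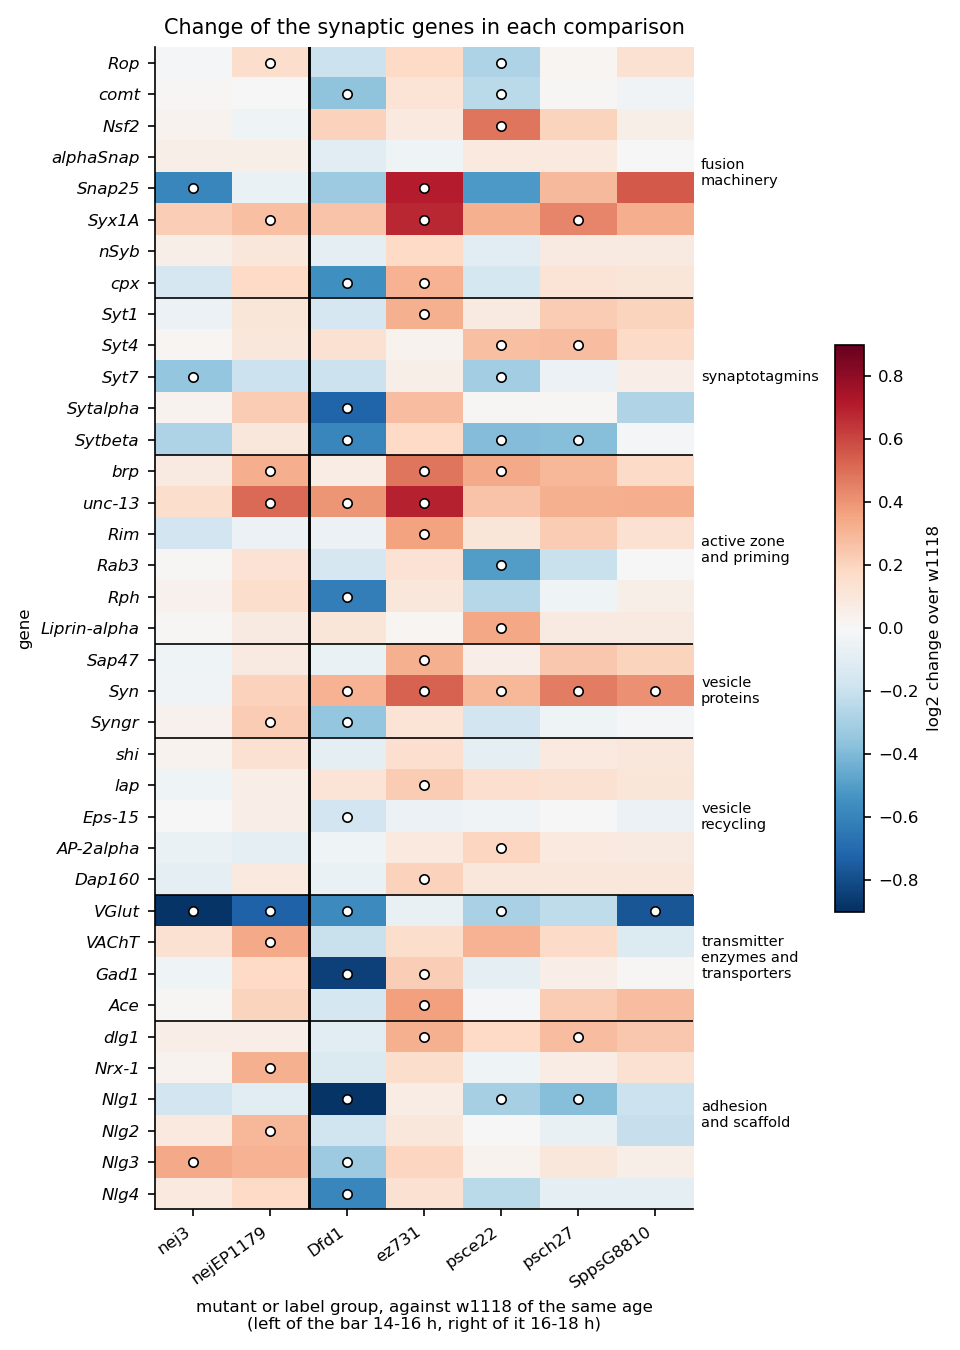
Log2 change over w1118 of the same age of the 37 tested synaptic genes (rows, by role) in each nej allele and label group (columns). White points mark an adjusted p under 0.05. The VGlut row is blue with a point in 5 of 7 columns and the Syn row red with a point in all 5 columns at 16-18 h, and the Dfd1 column holds 12 points on blue.

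The genes alphaSnap, nSyb and shi were called in none of the 7 comparisons with w1118. nSyb was at 229 to 281 CPM in the nej mutants and 227 to 262 CPM in w1118 at 14-16 h, and at 316 to 435 CPM in the mutants and 355 to 374 CPM in w1118 at 16-18 h. shi was at 292 to 368 CPM over all 28 libraries. On simulated counts with the spread of these libraries, the test found 92.5 to 95.5% of 2-fold and 82.1 to 83.6% of 1.5-fold changes at 14-16 h. It found 59.7 to 64.2% and 38.8 to 52.2% at 16-18 h, so changes of 2-fold and less could be missed at the later age. The simulated spread at 16-18 h came from the groups as labelled, with the unlike psch27-labelled libraries taken as 1 group.

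Of the 40 further synapse genes, 2 were higher (5%, with 25.5% of all genes) and 18 lower (45%, with 27% of all genes) in Dfd1, and the smallest adjusted p was that of ChAT, which makes acetylcholine, at 23.4 CPM in Dfd1, against 41 CPM in w1118 (adjusted p = 6.7e-06 for a log2 change of -0.81). Amph, which encodes amphiphysin, had a log2 change of -0.86 (adjusted p = 2.2e-04), with 309 CPM in Dfd1 against 563 CPM in w1118. In ez731-labelled libraries 12 were higher (30%, with 13.2% of all genes) and 2 lower (5%, with 15.8%), and those that were higher included the calcium channel gene cac, at 155 CPM, against 104 CPM in the control (adjusted p = 0.0011 for a log2 change of 0.57), and the teneurin gene Ten-a, at 225 CPM, against 157 CPM (log2 change 0.52, adjusted p = 8.3e-04). Both were also higher in psch27-labelled libraries (log2 change 0.45, adjusted p = 0.016, and 0.32, adjusted p = 0.038). In psce22-labelled libraries the counts were near the share of all genes, with 8 higher (20%, with 17.7% of all genes) and 7 lower (17.5%, with 21.9%), such as Frq2, a neuronal calcium sensor, at 60.4 CPM, against 86.9 CPM in the control (adjusted p = 0.0031 for a log2 change of -0.53). In psch27-labelled libraries 3 were higher and 1 lower (7.5% and 2.5%, with 3.48% and 4% of all genes), and in SppsG8810-labelled libraries 2 were higher and 1 lower (5% and 2.5%, with 3.43% and 5.43%).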

How the data were processed

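Messenger RNA of whole embryos was sequenced with short reads. The authors deposited raw counts of reads in genes, as 1 table per age. Per the submitters' processing notes they used featureCounts and the dm6 build, with the version, strand setting and treatment of shared reads not given in the sources used here. The authors also deposited DESeq2 tables per mutant with fold changes and p-values, which were not used, and a mean normalized signal (baseMean), which served only to find the columns each table was made from. Gene names came from these tables, and VAChT and Nlg3 were matched by identifier.

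Samples were grouped by label. Counts were filtered with filterByExpr, which left 10397 and 11366 genes, scaled by TMM and fitted per table with the quasi-likelihood test of edgeR 4.0.16 in R 4.3.3, with group as the only term. P-values were adjusted over all genes tested by the Benjamini-Hochberg method, and a gene was called at an adjusted p under 0.05. CPM used TMM-scaled library sizes. The alternatives were RLE size factors, no filter, DESeq2 1.42.0, only the groups compared, a replicate block and leaving out each library. With 1 library left in a group, that library is assumed to vary like the others. Positions and exon lengths came from Ensembl release 115 (dm6 coordinates). The tests were checked on simulated data with 200 genes changed per contrast.

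The genes, lists and tests were chosen with earlier results of these data known. Values in every library were given for genes called in both alleles or the most label groups and for the largest changes per role. The further genes that are named were examples out of the 40 and were not picked strictly by smallest adjusted p. Scamp in nejEP1179 (log2 change -0.22, adjusted p = 0.0017) and EndoA in Dfd1 (log2 change -0.43, adjusted p = 8.0e-05) were passed over. No replicates were copies of each other (chi-square of counts over its degrees of freedom between 2.83 and 131 in 32 pairs).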

Additional observations from a re-analysis of the deposited data

Results flagged for a closer look

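For 7 of 111 groups of 4 libraries, 1 library stood far from the other 3 by Dixon's criterion, which chance gives in about 1 group in 20. In w1118 at 14-16 h, replicate 4 was low for brp (341 CPM, the others 390 to 398), Sap47 (341 CPM, the others 370 to 373), AP-2alpha (154 CPM, the others 171 to 173) and Nlg1 (46.2 CPM, the others 49 to 49.2), and replicate 2 was high for Syt4 (166 CPM, the others 157 to 158). Nlg3 was at 32.6 CPM in nej3 replicate 2 (the others 24.2 to 25.5). Nrx-1 was at 239 CPM in nejEP1179 replicate 4 (the others 188 to 196).

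The effects of the nej alleles differed, as tested directly between nej3 and nejEP1179, for Snap25 (log2 difference -0.53), unc-13 (-0.35), cpx (-0.33), Nrx-1 (-0.29), Nlg2 (-0.21), Dap160 (-0.17) and Rop (-0.16), with adjusted p of 0.01 to 0.044 by edgeR. Of these 7 calls, only that of unc-13 held under all 13 alternatives. The count was 1 when only these groups were fitted.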

How the results depend on the processing

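The 69 calls of single genes were recomputed under RLE size factors, no filter on low counts, DESeq2, only the groups compared in the fit, a replicate block and without each library, and 28 held under all of them. No log2 change of a called gene reversed. Fitting only the groups compared gave 2 genes higher in nej3 (main count 1), 2 lower in nejEP1179 (1), 1 lower in nej3 against nejEP1179 (7), 4 higher in Dfd1 (2), 11 higher in psce22-labelled (6), 0 higher and 0 lower in psch27-labelled (4 and 2), and 10 higher and 3 lower in SppsG8810-labelled libraries (1 and 1). The count of higher genes in SppsG8810-labelled libraries was 5 with DESeq2 and 2 with RLE size factors. The cause was not tested.

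Replicate numbers did not pair the libraries: the correlation of the deviations of same-numbered libraries from their group means was -0.48 to 0.52 over 48 pairs. With a replicate block, 3 genes were lower in nej3 against nejEP1179 and 2 were higher in SppsG8810-labelled libraries, and the other counts stayed within 1.5 times.

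Leaving out 1 library in turn gave 0 to 2 genes higher and 3 lower each time in nej3, 4 to 10 higher and 1 to 2 lower in nejEP1179, 1 to 10 lower in nej3 against nejEP1179, 0 to 3 higher and 10 to 12 lower in Dfd1, 8 to 19 higher in ez731-labelled, 1 to 5 higher and 0 to 5 lower in psce22-labelled, 1 to 5 higher and 0 to 2 lower in psch27-labelled, and 1 to 2 higher and 1 lower each time in SppsG8810-labelled libraries. At 16-18 h, with 2 or 3 libraries per group, 38.8 to 52.2% of simulated 1.5-fold changes were found, in genes drawn at random from all those tested. The simulated spread came from the groups as labelled, with the unlike psch27-labelled libraries taken as 1 group. The part of library number in this was therefore not separated from that of the mixed group.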
